A study of Capra hircus with 21 samples.

Results

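HMGCS1, MSMO1, FDPS and FABP3 are 4 genes of lipid metabolism, 3 of them enzymes of sterol synthesis and the last a fatty acid carrier. They were chosen by gene symbol from a table of 19040 genes, in which each symbol had 1 row, and all 4 were among the 4253 genes with enough signal to be tested. RNA was sequenced from goat (Capra hircus) oocytes that had matured in vivo and from in vivo embryos of 6 later stages, namely 2-cell, 4-cell, 8-cell and 16-cell embryos, morulae and blastocysts. Each of the 7 stages had 3 libraries, lettered A to C, which makes 21 libraries, and the labels name no treatment, breed, age or genotype for any stage. They also leave unsaid how many oocytes or embryos a library pools and whether A, B and C are separate animals, so the p-values reflect spread among these libraries alone and part of it may be technical. The comparison asks how the RNA of each gene changed from stage to stage before implantation.

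Mammalian cells make cholesterol from acetyl-CoA through mevalonate, isoprenoid diphosphates, squalene and lanosterol. HMGCS1 encodes the cytosolic synthase that makes HMG-CoA, a precursor of mevalonate. FDPS encodes the synthase of farnesyl diphosphate, from which both squalene and the lipid anchors of prenylated proteins are made. MSMO1 encodes the oxidase that acts on the C4 methyl groups of sterols after lanosterol. FABP3 encodes a small cytoplasmic protein that carries long-chain fatty acids and is best known from heart and muscle. In many cell types sterol synthesis genes are switched on together by the transcription factor SREBF2 when sterols are scarce, and early mammalian embryos up to genome activation depend largely on RNA stored in the oocyte.

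Levels are given as deposited, in RPKM, that is reads per kilobase of gene scaled to the size of the library. The values carry an offset of 0.01, so a gene without reads is listed at 0.01, and the length in the denominator is the full gene span with introns, so levels are compared here between libraries and not between genes. HMGCS1 lies on chromosome 20 at 31426865 to 31434690 on the plus strand, FDPS on chromosome 3 at 104806192 to 104814135 on the plus strand, MSMO1 on chromosome 17 at 69189918 to 69206912 on the plus strand, and FABP3 on chromosome 2 at 13665024 to 13672288 on the minus strand. The table lists all 4 as protein-coding and names no genome build, and no other listed gene overlaps any of these spans. How reads shared with near-identical copies such as processed pseudogenes were handled is not given in the sources used here, and the 4 values remain uncertain to that extent.

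Listed genes held 8.47 M (morula B) to 26.7 M reads (2-cell C) per library. The stage labels were checked on marker genes fixed for the purpose. The summed RPKM of the oocyte markers GDF9, BMP15 and BTG4 ran from 386 to 845 in oocyte libraries and from 0.0727 to 0.227 in blastocyst libraries, and the summed trophectoderm markers KRT8, CDX2, GATA3 and TFAP2C from 0.394 to 0.542 and from 93.1 to 162, of which KRT8 alone was 91.6 to 160. Of 12 cumulus and granulosa cell markers 9 were listed, and their summed level ran from 3.45 to 6.24 in oocytes, 0.153 to 3.23 in morulae and 1.01 to 5.79 in blastocysts. STAR made up most of it in oocytes (4.42 ± 1.38 RPKM), and 2 of the 9 had no read in any oocyte library. Leukocyte markers (4 of 6 listed) summed to at most 0.666, the erythrocyte gene ALAS2 reached 0.0367 and the listed sperm genes 0.184. Markers of oviduct and uterine epithelium (5 of 8 listed) summed to 5.59 to 6.65 RPKM in oocytes, then 3.66 to 3.92 at the 8-cell stage, 0.389 to 2.57 at the 16-cell stage, 2.12 to 2.92 in morulae and 0.147 to 0.667 in blastocysts. Of the 5, PAX8 was without reads in all oocyte libraries, and MSX1 made up most of the sum there (5.63 ± 0.544 RPKM). MSX1 fell by 1.43 on the log2 scale from 8-cell to 16-cell (adjusted p = 0.000285), and TPPP3 rose by 1.12 from 16-cell to morula (adjusted p = 0.000974) and fell by 1.22 into the blastocyst (adjusted p = 0.000131). The part of these genes' source cells in the results was not tested.

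Libraries that stood apart within their stage bear on all 4 genes. On the first principal component of the tested genes, which held 60.8% of the variance, 16-cell A and B lay at 35.8 and 40.5 but 16-cell C at 7.60, and morula A and B lay at 74.3 and 72.3 but morula C at 37.3, in both cases nearer to the earlier stages. GDF9, an oocyte growth factor, was at 30.1% of its 8-cell mean in 16-cell C against 3.69 and 5.08% in 16-cell A and B, and at 5.79% in morula C against 0.278 and 0.333%. In the blastocyst stage library B differed from A and C in the sterol genes, as described further on. Every comparison that used these libraries was therefore also made without them, a choice added after the data had been seen for the counts of listed genes and the ratios of mean levels. The label of morula A notes that its reverse read file was corrupt.

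HMGCS1 RNA was highest from the 2-cell to the 8-cell stage, fell at the 16-cell stage and again in the morula, and in the blastocyst was at the detection limit in A and C but not in B. The level was 19.9, 21.1 and 12.1 RPKM in oocyte libraries A, B and C (17.7 ± 4.90, mean ± SD, n = 3 here and at every stage). At the 2-cell stage it was 77.0, 31.8 and 43.0 RPKM (50.6 ± 23.5). All 2-cell libraries lay above all oocyte libraries, with library 2-cell A the highest of the 21.

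At the 4-cell stage the HMGCS1 level was 38.5, 41.8 and 46.2 RPKM (42.2 ± 3.86), and at the 8-cell stage 37.9, 50.0 and 38.2 RPKM (42.1 ± 6.90). These stages overlapped with each other and with the 2-cell stage. The 16-cell libraries, at 7.09, 5.74 and 19.2 RPKM (10.7 ± 7.43), all lay below the 8-cell libraries, with 16-cell C the highest of the 3. Morula A and B had 0.297 and 0.122 RPKM, from 126 and 21 reads, while morula C had 8.46 RPKM from 4117 reads (2.96 ± 4.76). In blastocysts the gene was at 0.0213, 0.427 and 0.01 RPKM (0.153 ± 0.238), which are 4, 186 and 0 reads. For library C, 3 reads would be 0.0209 RPKM, so a level below that could not have been detected there, a limit that covers counting error only. In order of mean level HMGCS1 ran 2-cell, 4-cell, 8-cell, oocyte, 16-cell, morula and blastocyst, and of the neighbours in this order only the 8-cell and oocyte libraries did not overlap.

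**Figure D1:**
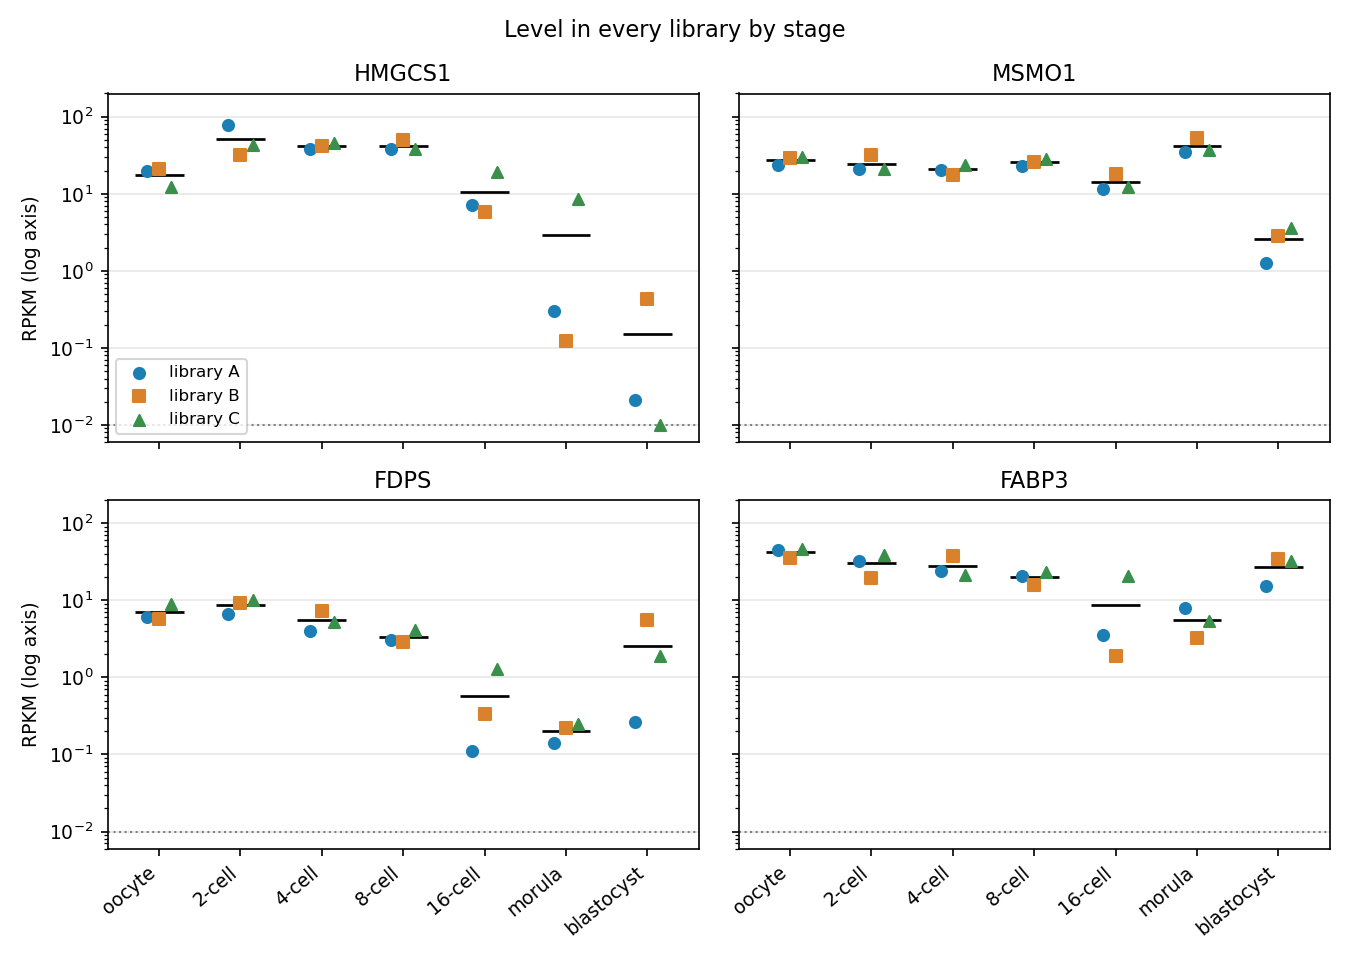
Level of HMGCS1, MSMO1, FDPS and FABP3 in each of the 21 libraries by stage, in RPKM on a log axis, with library A as circles, B as squares, C as triangles, the stage mean as a bar and the offset of 0.01 as a dotted line. The mean of HMGCS1 was 42.1 RPKM in 8-cell embryos and 0.153 RPKM in blastocysts, with morula C at 8.46 RPKM far above morula A and B and blastocyst B at 0.427 RPKM above A and C, while MSMO1 was at 34.5 to 53.6 RPKM in the morulae.

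Changes were tested with limma on log2(RPKM + 1) over all 4253 genes, and a gene was called at a Benjamini-Hochberg adjusted p below 0.05 with an absolute log2 fold change of at least 1. The fold changes understate the change of low genes because of the added 1. All 4 genes varied over the 7 stages, with adjusted p of 1.14e-07 for HMGCS1 and for MSMO1, 3.39e-06 for FDPS and 0.000198 for FABP3 in the moderated F test, a test that 93.8% of the tested genes passed.

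From oocyte to 2-cell none of the 4 genes was called, against 4.77% of the tested genes. HMGCS1 came nearest, with a log2 fold change of 1.40 (SE 0.59, unadjusted p = 0.0276, adjusted p = 0.135), and without 16-cell C and morula C in the fit the same change had an adjusted p of 0.0044 and was called. No gene of the table was called from 2-cell to 4-cell (0% of those tested, with 161 of 4253 genes at an unadjusted p below 0.05, and with 1 gene called at a pseudocount of 0.1 and 5 with array weights). From 4-cell to 8-cell 0.682% of genes were called and again none of the 4. Over the whole interval from oocyte to 8-cell 11.5% of genes were called and none of the 4, with HMGCS1 at 1.23 (adjusted p = 0.146).

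HMGCS1 fell from the 8-cell to the 16-cell stage by 2.05 on the log2 scale (SE 0.59, adjusted p = 0.00626), a ratio of mean levels of 3.94 with all libraries and of 6.57 without 16-cell C (each with the offset subtracted). It fell by a further 2.11 from 16-cell to morula (SE 0.59, adjusted p = 0.0132), although 16-cell and morula libraries overlapped through morula C. Without 16-cell C and morula C these falls were 2.53 and 2.61, and the second call was lost when 16-cell C alone (adjusted p = 0.0762), morula A (0.0929) or morula B (0.0928) was left out. Across both steps, from 8-cell to morula, HMGCS1 fell by 4.16 (SE 0.59, adjusted p = 5.95e-06), and 0.423% of the tested genes had a lower fold change. Between morula and blastocyst its change was -1.07 (SE 0.59, adjusted p = 0.145) and was not called. Without morula C that change was -0.085. The mean was 20.7-fold lower in blastocysts with all libraries, 1.40-fold without morula C and 522-fold without blastocyst B, where few or no reads remain. From oocyte to blastocyst HMGCS1 fell by 4.00 (SE 0.59, adjusted p = 7.73e-06). The 8-cell to morula comparison shares its libraries with the 8-cell to 16-cell and 16-cell to morula comparisons, and the oocyte to blastocyst comparison with the first and the last step, so these values are not independent of each other. Since the samples are whole oocytes and embryos, fewer cells that hold an RNA and less of that RNA per cell cannot be told apart. RPKM is also a share of a library's reads, so a change in the amount of other RNAs cannot be told apart from these either. The values do not give amounts of RNA per embryo.

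FDPS RNA went down over the same stages but came back in the blastocyst, unequally between libraries. Its level was 6.14, 5.70 and 9.04 RPKM in the oocyte libraries (6.96 ± 1.81), 6.67, 9.33 and 10.1 RPKM at the 2-cell stage (8.71 ± 1.81), and 3.98, 7.31 and 5.30 RPKM at the 4-cell stage (5.53 ± 1.68). The libraries of these 3 stages overlapped. At the 8-cell stage FDPS was at 3.02, 2.86 and 4.14 RPKM (3.34 ± 0.697), and all 8-cell libraries lay below all oocyte libraries. In 16-cell libraries it had dropped to 0.111, 0.336 and 1.27 RPKM (0.573 ± 0.616), with 16-cell C again the highest. The morula libraries held 0.142, 0.220 and 0.249 RPKM (0.204 ± 0.0548), from 40 to 118 reads, and morula C did not stand apart for this gene. The blastocyst libraries spread from 0.263 RPKM in A through 1.88 in C to 5.56 in B (2.57 ± 2.72), so that their SD exceeded their mean while the lowest of them still lay just above the highest morula. By mean level the order was 2-cell, oocyte, 4-cell, 8-cell, blastocyst, 16-cell and morula, and each neighbouring pair in it overlapped.

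FDPS fell from 8-cell to 16-cell by 1.52 on the log2 scale (SE 0.41, adjusted p = 0.00402) and from 8-cell to morula by 1.84 (SE 0.41, adjusted p = 0.000587), which in mean levels were 5.92-fold and 17.2-fold. Without 16-cell C the first of these ratios was larger, at 15.6-fold, with a fall of 1.82 on the log2 scale (adjusted p = 0.00189). Its change from 16-cell to morula was -0.32 (adjusted p = 0.612). From morula to blastocyst it rose by 1.26 (SE 0.41, adjusted p = 0.0182), a 13.2-fold higher mean. Without blastocyst B the difference was 0.67, a 5.49-fold higher mean, with an adjusted p of 0.154 and was not called, so that call rests on blastocyst B. With all libraries FDPS was lower in blastocysts than in oocytes by 1.44 (SE 0.41, adjusted p = 0.00433). That difference was 2.04 without blastocyst B and 0.85, under the fold required, without blastocyst A.

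MSMO1 followed another course, with its highest level in RPKM in the morula, although its difference between 8-cell and morula was not called and turned negative (-0.24) with quantile normalization. It was at 23.9, 29.2 and 30.2 RPKM in the oocyte libraries (27.8 ± 3.41), 20.8, 32.1 and 20.98 RPKM at the 2-cell stage (24.6 ± 6.47), and 20.5, 17.6 and 23.9 RPKM at the 4-cell stage (20.6 ± 3.16). The 8-cell libraries had 22.9, 25.5 and 28.5 RPKM (25.6 ± 2.84). Up to the 8-cell stage the MSMO1 libraries thus overlapped from each stage to the next. At the 16-cell stage the level was 11.6, 18.1 and 12.4 RPKM (14.0 ± 3.56), below every 8-cell library. Morulae held 34.5, 53.6 and 36.8 RPKM (41.7 ± 10.4), above every other library of the series, and 16-cell C and morula C lay close to the other libraries of their stages. Blastocysts held 1.26, 2.84 and 3.59 RPKM (2.56 ± 1.19), below every other library. In order of mean level MSMO1 ran morula, oocyte, 8-cell, 2-cell, 4-cell, 16-cell and blastocyst, and the neighbours without overlap were morula and oocyte, and 16-cell and blastocyst.

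The MSMO1 change from 8-cell to 16-cell was -0.84 (SE 0.32, adjusted p = 0.0308), which passed the p threshold but not the required fold. From 16-cell to morula MSMO1 rose by 1.5 (SE 0.32, adjusted p = 0.00242), a 2.97-fold higher mean. From morula to blastocyst it fell by 3.62 (SE 0.32, adjusted p = 7.19e-08), a 16.3-fold lower mean, and 0.893% of the tested genes had a lower fold change. From 8-cell to morula its change was 0.66 (adjusted p = 0.0736), not called, although in RPKM all morula libraries lay above all 8-cell libraries. Quantile normalization gave -0.24 (adjusted p = 0.539) and median-ratio scaling 0.23 (adjusted p = 0.567) for the same change. Compared with oocytes, blastocysts were lower by 3.07 (SE 0.32, adjusted p = 1.21e-07). Leaving out 16-cell C and morula C gave 1.51 for the rise into the morula and -3.69 for the change into the blastocyst, and leaving out blastocyst B gave -3.70 for the latter.

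**Figure D2:**
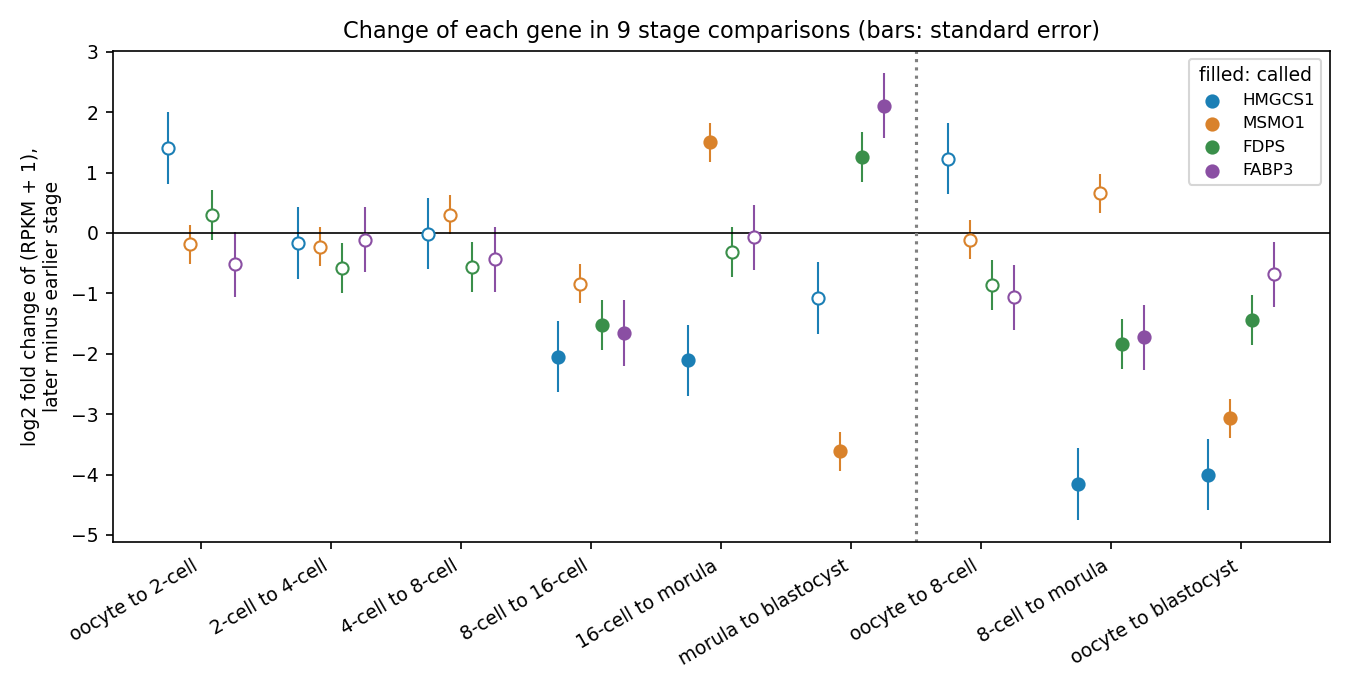
Log2 fold change of RPKM + 1 (later minus earlier stage) of each gene in 9 stage comparisons, with the standard error as bars and called changes as filled points; the dotted line separates the 6 consecutive steps from 3 wider intervals that reuse the same libraries. From morula to blastocyst MSMO1 changed by -3.62 while FDPS and FABP3 changed by 1.26 and 2.11.

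By direction, 3 of the 4 genes were lower and none higher from 8-cell to 16-cell, where 15.9% of tested genes were called lower and 19.4% higher. From 16-cell to morula MSMO1 was called higher (11.4% of tested genes) and HMGCS1 lower (4.66%). Into the blastocyst MSMO1 was called lower (25.3%) and FDPS and FABP3 higher (3.93%). That share of higher calls depends on the scaling: the median gene moved by -0.48 in this step, and with quantile normalization or median-ratio scaling 52.0 or 57.1% of the called genes were higher against 13.4% here, while the calls of MSMO1, FDPS and FABP3 kept their direction in both. From 8-cell to morula HMGCS1, FDPS and FABP3 were lower (21.8%) and none was higher (26.9%). From oocyte to blastocyst HMGCS1, FDPS and MSMO1 were lower (28.5%) and none higher (19.8%).

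The genes were also set against each other within libraries, in 12 differences of log2(RPKM + 1) chosen after their values had been seen. From 8-cell to morula the difference of HMGCS1 minus MSMO1 changed by -4.81. It lay between 0.411 and 0.945 in 8-cell libraries and between -5.61 and -2.0 in morulae (exact two-sided permutation test, p = 0.1, adjusted p = 0.133 over the 12). MSMO1 minus FDPS changed by 2.5 in that interval and by -4.88 from morula to blastocyst, and MSMO1 minus FABP3 by -5.73 in the latter (each exact permutation p = 0.1). With 3 libraries against 3 no p below 0.1 can be reached, so these tests could not have called any difference and the changes are a description. FDPS minus FABP3 changed by -0.11 from 8-cell to morula (exact permutation p = 0.8), with libraries from -2.43 to -2.11 before and -2.96 to -1.80 after. This small value does not mean equal falls, since the added 1 compresses FDPS in morulae, at 0.142 to 0.249 RPKM. In mean levels with the offset subtracted, FDPS fell 17.2-fold and FABP3 3.60-fold in that interval. Over the 21 libraries, Pearson's r of log2(RPKM + 1) was 0.844 between FDPS and FABP3, 0.630 between HMGCS1 and FDPS, 0.475 between HMGCS1 and MSMO1, 0.386 between HMGCS1 and FABP3, 0.140 between MSMO1 and FDPS and -0.178 between MSMO1 and FABP3. These describe the libraries only, which share their stages.

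Most of the sterol synthesis genes found other than HMGCS1, FDPS and MSMO1 stayed below 1 RPKM in every library. Of 21 genes on the list, which includes the 3 enzymes above, 18 were found, 8 reached 1 RPKM in any library and 7 were tested. Because the values are divided by the gene span with introns, a fixed threshold asks for more reads of a long gene. SQLE, NSDHL, FDFT1 and MVK, which were not tested, had up to 6450, 1074, 1048 and 832 reads in a library. The tested SC5D had up to 1315. LSS, DHCR7, MVD and TM7SF2, which encode steps from mevalonate diphosphate to cholesterol, had stage means of at most 0.0433 RPKM. GGPS1, which makes geranylgeranyl diphosphate, went from 3.87 ± 0.939 RPKM in oocytes to 15.8 ± 1.52 in 16-cell embryos and 1.43 ± 1.27 in blastocysts.

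From oocyte to 2-cell 1 of the 7 tested sterol synthesis genes rose, GGPS1 by 1.23 (adjusted p = 0.0336), and none fell, where 4.37% of all tested genes were called higher and 0.4% lower. The list's median log2 fold change was 0.44, beside 0.19 over all tested genes. Without 16-cell C and morula C, HMGCS1 was called as well, which makes 2.

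From 8-cell to 16-cell 3 of the 7 fell, HMGCS1, FDPS and SC5D (a desaturase late in the pathway), and 1 rose, LBR, where 15.9% of all tested genes were called lower and 19.4% higher. The list's median was -0.84 beside -0.14. SC5D fell by 1.06, from 1.77 ± 0.12 to 0.339 ± 0.242 RPKM. LBR, a receptor of the inner nuclear membrane that also has sterol reductase activity, rose by 1.54, from 1.02 ± 0.26 to 5.05 ± 1.99 RPKM. From 16-cell to morula MSMO1 rose (11.4% of tested genes) and HMGCS1 fell (4.66%), with a median of -0.32 beside 0.01, and without 16-cell C and morula C 2 genes fell, HMGCS1 and LBR. The oocyte markers GDF9 and BMP15 fell in both of these steps and BTG4 in the second, its change in the first being -1.46 (adjusted p = 0.0955). The 3 summed to 448 to 453 RPKM at the 8-cell stage, 62.9 to 233 at the 16-cell stage and 2.72 to 84.3 in morulae; their part in these results was not tested.

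From morula to blastocyst FDPS rose and 3 of the 7 fell, MSMO1, GGPS1 (by 2.29) and LBR (by 1.29), beside 3.93% of tested genes called higher and 25.3% lower, with a median of -1.07 beside -0.48. Without blastocyst B none rose and the same 3 fell. Over the longer interval from 8-cell to morula 3 of the 7 fell, HMGCS1, FDPS and SC5D (by 1.01), and none rose, beside 21.8% of tested genes called lower and 26.9% higher, with a median of 0.03 beside 0.01. From oocyte to blastocyst FDPS, GGPS1, HMGCS1 and MSMO1 fell and none rose, beside 28.5% and 19.8% of tested genes, with a median of -1.11 beside -0.33, and without blastocyst B GGPS1 was no longer called. IDI1, which makes dimethylallyl diphosphate, the starter that FDPS extends, passed in none of the 9 comparisons.

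**Figure D3:**
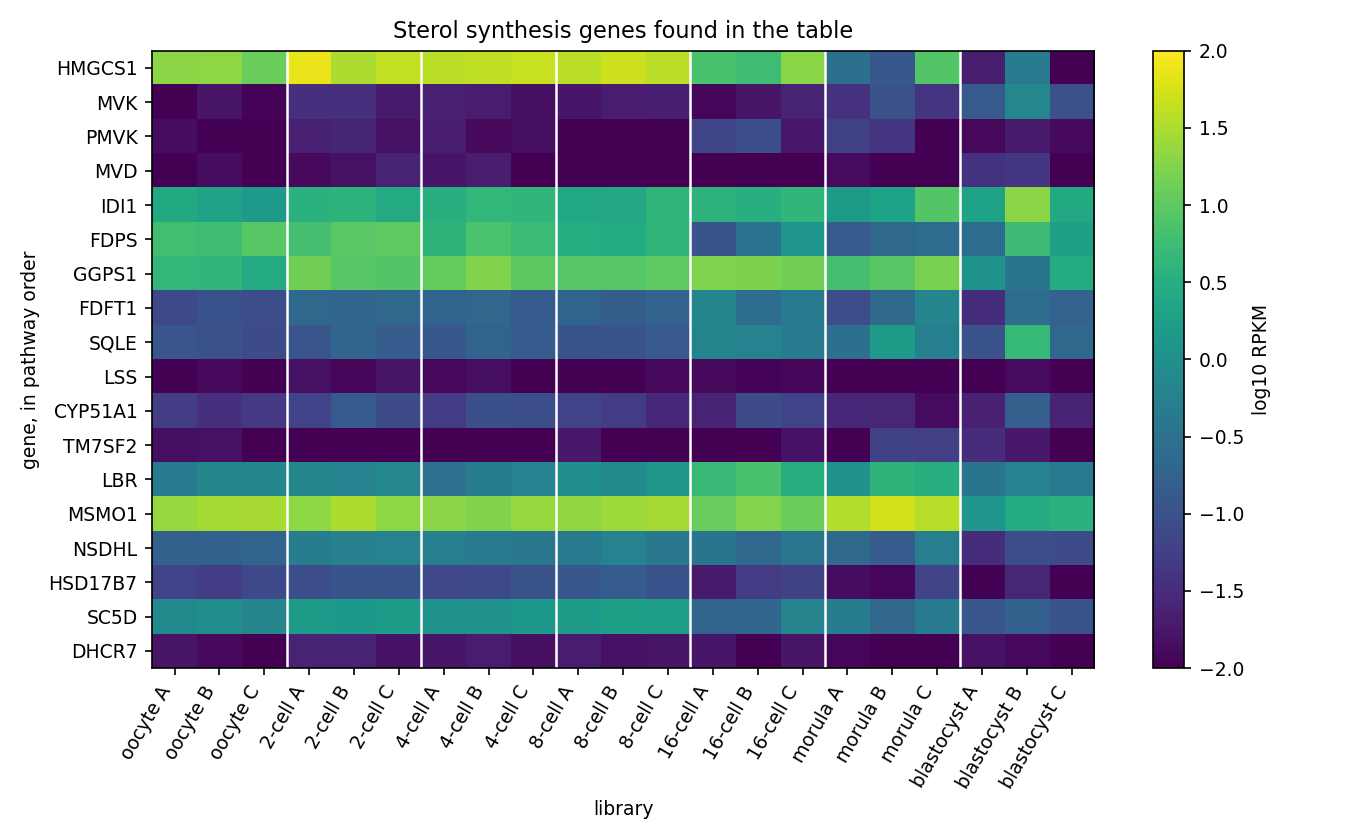
Level of 18 sterol synthesis genes, in pathway order from top to bottom, in each of the 21 libraries, as the log10 of RPKM (a gene without reads is at -2). HMGCS1 and MSMO1 were among the few rows with high RPKM up to the 8-cell stage, a value that also depends on the gene span. Blastocyst B was above A and C in IDI1, FDPS and SQLE. FDPS was graded, from 0.263 RPKM in A through 1.88 in C to 5.56 in B.

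Blastocyst B had higher levels of most of the tested sterol synthesis genes than blastocysts A and C. Of the 7 tested, 5 (71.4%) had their highest blastocyst level in B, whereas of 4203 tested genes with unequal levels 580 (13.8%) did. RPKM is scaled to all reads, of which listed genes held 24.4, 24.9 and 40.5% in A, B and C. The part of this in these shares, and in the gene counts given below, was not tested. Of all 18 found, which include 11 that did not pass the filter, 14 (77.8%) were highest in B. No such share was computed over all listed genes. Among those 11, MVD, LSS and TM7SF2 had at most 12 reads in any library and DHCR7 at most 14, so their order among the blastocysts is near the counting floor. B also had the largest implied depth of the 3 blastocyst libraries, 57.0 M reads against 45.3 M in A and 35.2 M in C. IDI1 was at 20.1 RPKM in B against 2.12 in A and 2.71 in C. SQLE, the epoxidase that acts on squalene, was at 4.85 RPKM against 0.107 and 0.216, and MVK, the mevalonate kinase, at 0.703 against 0.135 and 0.0989. HMGCS1, at 0.427 RPKM, and FDPS, at 5.56 RPKM, were highest in B too, and MSMO1, at 2.84 RPKM, and GGPS1, at 0.356 RPKM, were not. Among the regulators, SREBF2 was at 0.177 RPKM in B against 0.0437 and 0.0295, and INSIG1, a target and brake of that pathway, at 0.0742 RPKM (42 reads) in B with 0 reads in A and C. Both were named after their values were seen, and how many regulators were highest in B was not counted. INSIG2, the only regulator tested, differed little between A, B and C. Blastocyst B had the fewest genes at 1 RPKM or more, 1620 against 2093 in A and 2421 in C. Among the trophectoderm markers, KRT8 was at 160 RPKM in B against 91.6 in A and 91.9 in C. GATA3 was at 1.82 against 0.982 and 0.625, and CDX2 at 0.261 against 0.252 and 0.0784. TFAP2C went the other way, at 0.0945 RPKM in B against 0.468 and 0.437. These values come from 1 library, have no replicate, and their relation to the sterol genes was not tested.

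**Figure D4:**
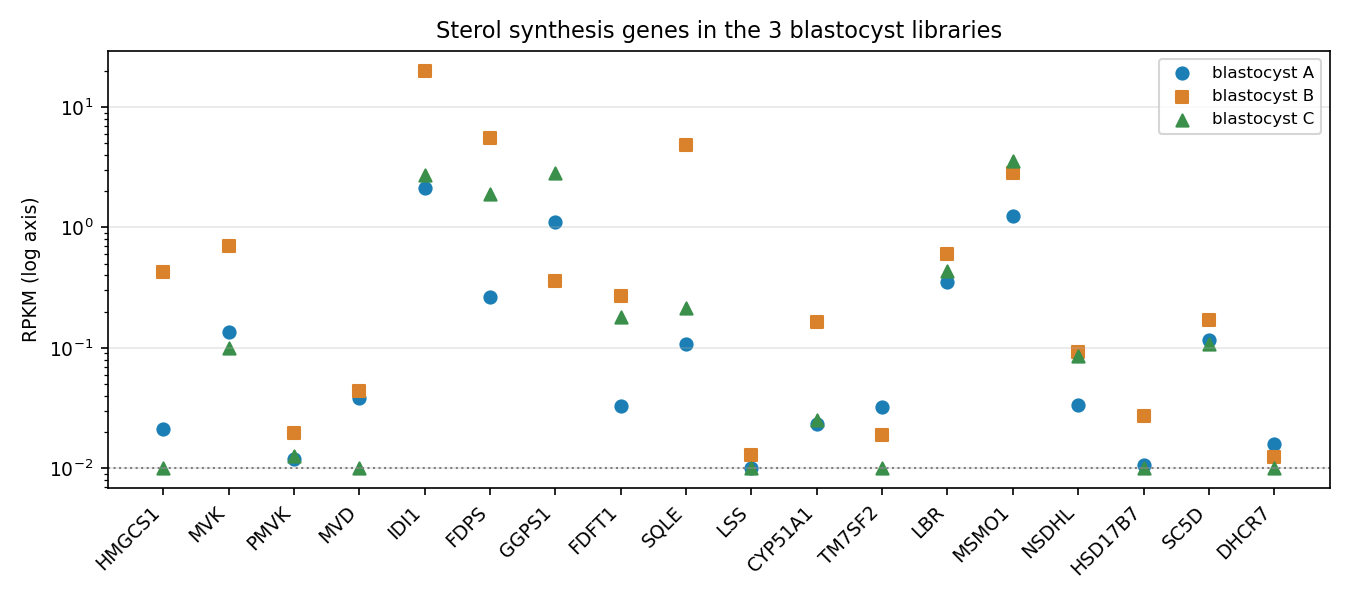
Level of 18 sterol synthesis genes in the 3 blastocyst libraries, in RPKM on a log axis, with the offset of 0.01 as a dotted line. Blastocyst B is the highest of the 3 for 5 of the 7 tested genes, among them IDI1 at 20.1 RPKM, beside 13.8% of all tested genes. SQLE, which did not pass the filter, was at 4.85 RPKM in B.

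Of the 9 regulators of sterol synthesis on the list 8 were found, and INSIG2, which holds the SREBF2 complex back, was the 1 tested. Its level was 1.73 ± 0.277 RPKM in oocytes and 1.48 ± 0.25 RPKM in 8-cell embryos, then 0.352 ± 0.35 RPKM in morulae and 0.659 ± 0.0476 RPKM in blastocysts. It was called in none of the 9 comparisons, and its change from 8-cell to morula was -0.90 (adjusted p = 0.000563). Of 17 genes of sterol uptake, transport and storage 14 were found and 2 tested, NPC2 and SOAT1. NPC2, which carries cholesterol out of lysosomes, fell by 2.15 from 8-cell to morula (adjusted p = 0.00123), from 9.50 ± 2.23 to 2.46 ± 3.81 RPKM, and none of the 2 rose in that interval. The 9 listed genes that attach or use farnesyl and geranylgeranyl groups did not pass the filter, and none of them reached 1 RPKM in any library.

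FABP3 RNA was lower in the morula than in the oocyte and the 8-cell embryo, and was high again in the blastocyst. The order of 16-cell and morula depended on 16-cell C, without which the morula mean was 2.04-fold the 16-cell mean. Oocytes held 44.9, 35.9 and 46.1 RPKM (42.3 ± 5.58), 2-cell embryos 32.2, 19.7 and 38.7 RPKM (30.2 ± 9.67), and 4-cell embryos 24.3, 37.4 and 21.3 RPKM (27.7 ± 8.51). At the 8-cell stage the level was 20.7, 15.7 and 23.2 RPKM (19.9 ± 3.82), below every oocyte library. The earlier stages overlapped from each to the next. At the 16-cell stage FABP3 was at 3.53 and 1.88 RPKM in A and B but at 20.4 RPKM in C (8.61 ± 10.3), so that 16-cell C was at 103% of the 8-cell mean and A and B at 17.7 and 9.42%. Morulae had 7.89, 3.25 and 5.40 RPKM (5.52 ± 2.32), and morula C lay between the other two. Blastocysts had 15.5, 34.2 and 32.4 RPKM (27.4 ± 10.3), all above the morulae and all below the oocytes. In order of mean level FABP3 ran oocyte, 2-cell, 4-cell, blastocyst, 8-cell, 16-cell and morula, and each neighbouring pair overlapped.

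FABP3 fell from 8-cell to 16-cell by 1.66 on the log2 scale (SE 0.54, adjusted p = 0.0133), with 16-cell C inside the range of the 8-cell libraries. Without 16-cell C the fall was 2.51 (adjusted p = 7.32e-05), while without 16-cell A or B the change was -1.39 (adjusted p = 0.0663) or -1.07 (adjusted p = 0.111) and was not called. From 16-cell to morula its change was -0.07 (adjusted p = 0.941), and it was 0.77 without 16-cell C and morula C. From 8-cell to morula it fell by 1.73 (SE 0.54, adjusted p = 0.00785), with a mean 3.60-fold lower, and by 1.75 without morula C and 16-cell C. From morula to blastocyst it rose by 2.11 (SE 0.54, adjusted p = 0.00373), with a mean 4.97-fold higher, and by 1.91 without blastocyst B (adjusted p = 0.019). The blastocyst level was 0.68 below the oocyte level (SE 0.54, adjusted p = 0.271), which was not called. Of the trophectoderm markers KRT8 rose in the same step, from 1.22 to 1.98 RPKM in morulae to 91.6 to 160 RPKM in blastocysts, and made up nearly all of the summed level of the 4. TFAP2C changed by -0.68 (adjusted p = 0.00136, under the required fold), while GATA3 and CDX2, which did not pass the filter, were at 0.0224 to 0.283 and at most 0.0199 RPKM in morulae and at 0.625 to 1.82 and 0.0784 to 0.261 RPKM in blastocysts. The part of these markers in the rise of FABP3 was not tested.

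**Figure D5:**
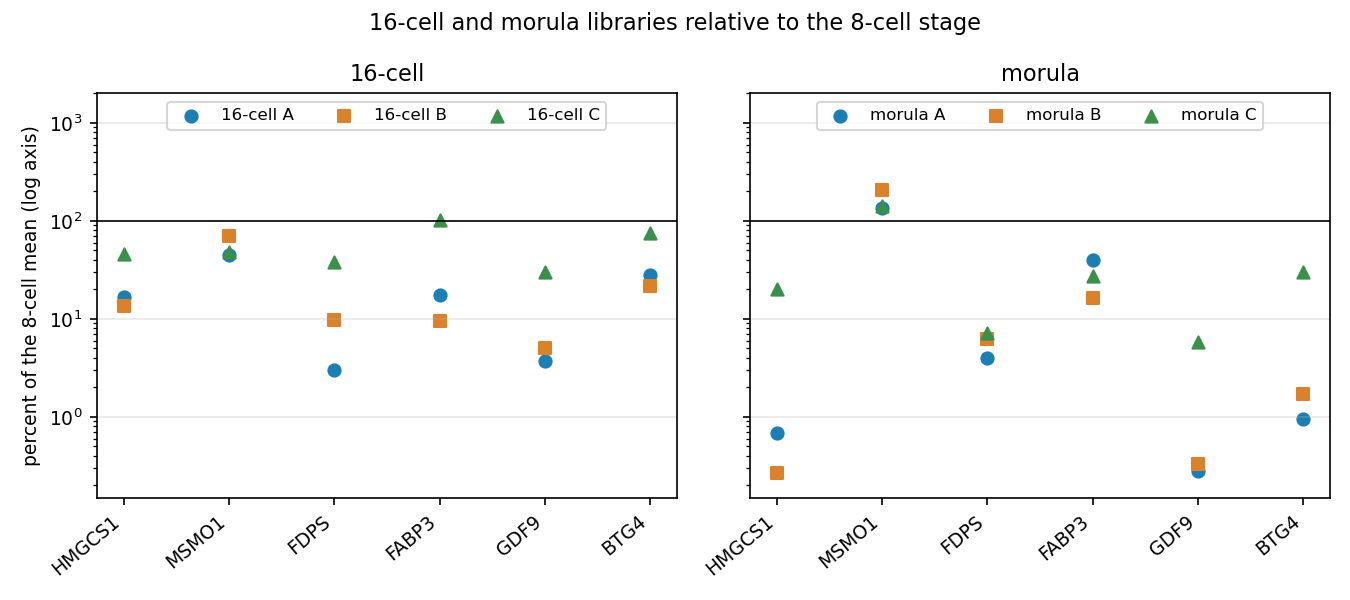
Level of the 4 genes and of the oocyte markers GDF9 and BTG4 in each 16-cell library (left) and morula library (right), as a percent of the 8-cell mean on a log axis, with a line at 100%. In 16-cell C HMGCS1, FDPS, FABP3 and both oocyte markers were above 16-cell A and B (FABP3 at 103% against 17.7 and 9.42%), and in morula C HMGCS1 and both markers were above morula A and B.

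Of 24 genes of fatty acid binding, uptake and activation 21 were found and 5 tested. FABP3 was the only carrier of its family among the tested genes: the other 6 that were found, FABP1, FABP4, FABP6, FABP7, FABP9 and PMP2, had stage means of at most 0.454 RPKM, and FABP2, FABP5 and FABP12 were not analysed here. From 8-cell to morula FABP3 and ACBD3 fell and ACSL4 and DBI rose, so that 2 of the 5 were called lower and 2 higher where 21.8% and 26.9% of tested genes were. The list median was -0.12 beside 0.01. ACSL4, which activates polyunsaturated fatty acids to their CoA esters, rose by 1.86 (adjusted p = 0.000222), from 0.709 ± 0.124 to 6.21 ± 4.16 RPKM, and rose again by 1.26 from morula to blastocyst (14.1 ± 3.35 RPKM). DBI, which binds acyl-CoA, rose by 2.86, from 0.286 ± 0.201 to 8.60 ± 2.84 RPKM, and was at 5.15 ± 3.66 RPKM in blastocysts. ACBD3, a Golgi protein with an acyl-CoA binding domain, fell by 1.18, from 2.16 ± 0.386 to 0.401 ± 0.225 RPKM. From morula to blastocyst FABP3 and ACSL4 rose and none of the 5 fell (3.93% and 25.3% of tested genes), with a median of 0.81 beside -0.48, and without 16-cell C and morula C ACSL4 was no longer called.

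Of 21 genes of fatty acid oxidation 19 were found and 4 tested. From 8-cell to morula ETFA and ACAA2 fell, by 2.07 and 1.18, and ETFB rose by 2.01 (21.8% and 26.9% of tested genes), with a median of -1.0 beside 0.01. ETFA and ETFB encode the subunits of the flavoprotein that takes electrons from acyl-CoA dehydrogenases, and their means went from 4.20 ± 0.447 to 0.284 ± 0.446 RPKM and from 0.0757 ± 0.0203 to 3.57 ± 1.74 RPKM. ACAA2 encodes a thiolase of mitochondrial fatty acid oxidation. Of 17 lipid droplet and triglyceride genes all were found and 1 was tested, PLIN2, a coat protein of lipid droplets, which fell by 1.69 from 8-cell to morula, from 3.50 ± 0.184 to 0.429 ± 0.359 RPKM. Of 11 fatty acid synthesis genes 10 were found and none passed the filter. FASN, the fatty acid synthase, was at 0.518, 1.22 and 0.173 RPKM in blastocysts A, B and C, and its means at earlier stages were at most 0.0415 RPKM.

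The genes with a symbol whose levels ran most like those of each member over the 21 libraries were taken by Pearson's r of log2(RPKM + 1), as a description. For HMGCS1 they were USP44 (r = 0.984), LINGO2 (0.983), GDF9 (0.980), HBEGF (0.980) and MAT2B (0.980). For MSMO1 they were TWISTNB (0.879), GSKIP (0.879), MAD2L1 (0.877), USP16 (0.877) and RAE1 (0.874). FDPS was most like AKR1B1 (0.950), SURF1 (0.883), LMNB1 (0.874), TCP11L2 (0.861) and BPNT1 (0.860). FABP3 was most like NME2 (0.896), ANAPC13 (0.879), FDPS itself (0.844), ARHGAP18 (0.841) and PLEKHB2 (0.835). The libraries share their stage in all of these values, and no sterol synthesis gene other than FDPS was among the 20. Only 7 of the 4253 tested genes were on that list, so this absence says little about whether its genes moved together.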

How the data were processed

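RNA-seq values of 21 goat oocyte and embryo libraries (7 stages, 3 libraries each, grouped by title) came from 1 table of RPKM values that the authors deposited. The submitters' processing notes name FastQC, STAR 2.5.3a and Partek without saying what each did. Not given in the sources used here were the build, strand, counting rule and treatment of multiply mapped reads. To check the unit, the offset of 0.01 was subtracted and each value multiplied by the distance from gene start to stop. Of values of up to 8 reads, 95.5 to 97.2% per library then fell within 0.05 of a whole multiple of what 1 read is worth. This gave reads per gene and an implied depth of 24.0 to 66.6 M reads per library, of which 8.47 to 26.7 M lay in listed genes. A level of 3 reads was taken as the limit of detection, which covers counting error only, since molecules were not marked.

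The filter kept genes that reached 1 RPKM in 3 or more libraries (4253). A limma model (version 3.58.1 in R 4.3.3, with trend and robust variance) of all 7 stages was fitted to log2(RPKM + 1), with two-sided tests, Benjamini-Hochberg adjustment over all genes tested and a minimum absolute log2 fold change of 1. The script was tested on simulated data. Differences between genes were compared with exact permutation tests (scipy 1.17.1). Python 3.11.15 with pandas 2.3.3, numpy 2.4.6 and matplotlib 3.10.9 made the tables and figures. Named were the 4 genes, the 5 genes most correlated with each, every tested gene of the sterol synthesis and regulation lists, up to 3 rises and 3 falls from 8-cell to morula in the other lists, and the marker genes; other listed genes were named after their values were seen. The members and lists were chosen with earlier results of these data known. Alternatives were other pseudocounts, filters, scalings, variance settings, a replicate block and left-out libraries. Some genes of the sterol synthesis list are not reported here and are left out of its counts. No sequences were used here.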

Additional observations from a re-analysis of the deposited data

How the results depend on the processing

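Of the 36 values for the 4 genes in 9 comparisons, 6 were called in the same direction under every alternative and with any single library left out: HMGCS1 from 8-cell to morula and from oocyte to blastocyst, MSMO1 from morula and from oocyte to blastocyst, and FABP3 from 8-cell to morula and from morula to blastocyst. Same-lettered libraries of different stages did not deviate together (mean correlation of deviations 0.000542, from -0.410 to 0.318), and a fit with the letter as a replicate block changed no call of the 4 genes (HMGCS1 from 8-cell to morula remained at -4.16).

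A pseudocount of 5 in place of 1 ended the FDPS calls: -0.58 from 8-cell to 16-cell, -0.68 to morula, 0.48 from morula to blastocyst and -0.71 from oocyte to blastocyst; HMGCS1 was then called from oocyte to 2-cell (1.23) and to 8-cell (1.07). With a pseudocount of 0.1 HMGCS1 was called from morula to blastocyst (-2.25) and FABP3 from 16-cell to morula was 0.00019. Without a filter HMGCS1 from 16-cell to morula (-2.11) and FDPS from morula to blastocyst (1.26) were no longer called, at adjusted p of 0.0514 and 0.0553. Quantile normalization gave HMGCS1 0.14 from 4-cell to 8-cell, MSMO1 -1.31 (called) from 8-cell to 16-cell and -0.24 to morula, and FDPS -1.02 (not called) from oocyte to blastocyst. Median-ratio scaling gave HMGCS1 0.065 from 4-cell to 8-cell, FDPS -0.085 from oocyte to 2-cell and -1.11 (not called) to blastocyst. Scaling recovered reads to the reads in listed genes, an alternative added after seeing the data, gave HMGCS1 -1.92 (not called) from 8-cell to 16-cell and -2.65 (called) from morula to blastocyst. Array weights gave FABP3 0.16 from 16-cell to morula, -1.17 (called) from oocyte to 8-cell and -1.40 (called) to blastocyst, HMGCS1 1.34 and 1.12 (called) from oocyte to 2-cell and 8-cell, and FDPS 0.094 (not called) from morula to blastocyst.

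A fit of only the 2 stages compared called HMGCS1 from oocyte to 2-cell (1.40) and 8-cell (1.23) and FABP3 to 8-cell (-1.06), and no longer called HMGCS1 (-2.11) and MSMO1 (1.5) from 16-cell to morula or FDPS to blastocyst from morula (1.26) and oocyte (-1.44). Without 16-cell C and morula C together, HMGCS1 was called from oocyte to 2-cell and 8-cell (1.40, 1.23), FABP3 from oocyte to 8-cell (-1.06), and FABP3 from 16-cell to morula was 0.77.

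With single libraries left out, the values ranged as follows. HMGCS1 ran from 1.06 to 1.68 (oocyte to 2-cell), -0.44 to 0.18 (2-cell to 4-cell, positive without 2-cell A), -0.14 to 0.055 (4-cell to 8-cell), 0.99 to 1.37 (oocyte to 8-cell), -3.10 to -1.56 (16-cell to morula, not called without 16-cell C, morula A or morula B) and -1.62 to -0.085 (morula to blastocyst, called without morula B). MSMO1 ran from -1.03 (called, without 16-cell B) to -0.73 from 8-cell to 16-cell. FABP3 ran from -0.38 to 0.089 (2-cell to 4-cell), -2.51 to -1.07 (8-cell to 16-cell, not called without 16-cell A or B), -0.66 to 0.79 (16-cell to morula) and -1.18 to -0.91 (oocyte to 8-cell). FDPS ran from 0.67 (not called, without blastocyst B) to 1.85 from morula to blastocyst and from -2.04 to -0.85 (not called, without blastocyst A) from oocyte to blastocyst.

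Over all genes, the counts called were 203, 0, 29, 1502, 683 and 1244 in the 6 consecutive steps and 489, 2071 and 2053 in the wider intervals. A pseudocount of 0.1 gave 350, 1, 35, 2329, 1096, 2136, 854, 2895 and 3082, and a pseudocount of 5 gave 48, 0, 20, 613, 319, 513, 157, 907 and 916. The count was 1501 from oocyte to 2-cell and 5920 from 8-cell to morula without division by gene span, and 1214 and 7011 per read in listed genes, over more genes. A fit of 2 stages called 185 genes from 16-cell to morula and 689 to blastocyst, and array weights 318 from oocyte to 2-cell and 194 from 4-cell to 8-cell, where quantile normalization gave 88, median-ratio scaling 55, no trend or robust estimation 17, the 5 RPKM filter 17 and the fit without 16-cell C and morula C 72. The 5 RPKM filter gave 114 from oocyte to 2-cell, 1291 from 8-cell to morula and 1348 from oocyte to blastocyst. Without morula A or C 385 or 1074 genes were called from 16-cell to morula. The share of called genes that were higher was 91.6% from oocyte to 2-cell (57.4% with quantile normalization, 50% with median-ratio scaling), 86.2% from 4-cell to 8-cell (59.1% with the former), 71.0% from 16-cell to morula (58.5 and 44.2%), 69.7% from oocyte to 8-cell (46.4 and 47.3%) and 55.2% from 8-cell to morula (45.2% with the latter). Low levels limit FDPS in morulae, at 40 to 118 reads, and HMGCS1 in blastocysts.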
